A study of Mus musculus with 8 samples.

Results

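The major urinary proteins described here are the products of 9 mouse genes, Mup1, Mup3, Mup6, Mup7, Mup10, Mup11, Mup17, Mup20 and Mup21, found by symbol in the deposited table of estimated counts. They are 9 of 22 Mup genes with a number in that table of 55401 genes, and all 9 were among the 17669 genes with enough counts to be tested. The genes were picked with their levels in these libraries already known, including the spread between the libraries titled L and R of Colo201 number 2, so that spread is given as a description.

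The livers came from NOD Scid Gamma (NSG) mice, an immunodeficient strain, each bearing a human colorectal cancer line under the skin, and their RNA was sequenced. The study asked how FGF19 made by the tumour alters the liver of the host. Colo201, given as the line with high FGF19, had 4 host libraries: 2L and 2R labelled male, and 4L and 4R labelled female. HCT116, labelled as low in FGF19, had 4 host libraries as well: 1L and 1R labelled male, and 3L and 3R labelled female. All hosts carried a tumour, and no tumour-free host was analysed here, so FGF19 cannot be told apart from other differences between these tumours. The labels used here give neither age nor time. Nor do they tell if L and R come from different animals, and the p-values below therefore cover only library-to-library spread, part of which may be technical. Each number holds 1 combination of line and sex label.

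Libraries held 61347603 to 65457482 estimated counts, and levels are given as CPM, scaled to that total. In all 8 libraries the sex chromosomes went against the label. Xist RNA, which coats the silent X of females, was at 239 to 374 CPM under the male label and 0.275 to 0.833 CPM under the female label, and 4 Y-linked genes (Ddx3y, Eif2s3y, Uty, Kdm5d) reached at most 0.0764 CPM in libraries labelled male and 8.93 to 65.7 CPM each in those labelled female. Sex is therefore written only as labelled. Hepatocyte genes dominated every library, with Alb alone at 7.51 to 12% of counts. Of 8 marker genes of salivary, lacrimal or pancreatic gland, other tissues that could be carried along or that make such lipocalins, 5 (Amy2a2, Prb1, Bpifa2, Smgc, Cpa1) were at 0 in every library. The 8 summed to 159 to 243 CPM in Colo201 and 307 to 318 CPM in HCT116 libraries, nearly all of it Amy1 and Cela1. The sum does not stand for each gene. Of the 2 with enough counts to be tested, 1 was higher and 1 lower in Colo201 at an adjusted p under 0.05 (edgeR). Over all tested genes 2.48% were higher and 2.3% lower. The part of these marker genes in the Mup levels was not tested.

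Major urinary proteins are small barrel-shaped lipocalins that hepatocytes secrete into the blood. The kidney passes them into urine, where they bind and slowly release volatile pheromones; MUP20, also called darcin, is itself a male signal in mouse scent marks. In mouse liver most of these genes are far more active in adult males, because the male pattern of pulsatile growth hormone drives them through STAT5b, while the near-continuous female pattern does not. Androgens act mainly through that pattern, and thyroid hormone and glucocorticoids also raise the genes. The genes sit side by side as recent duplicates, many of them nearly identical.

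How alike the genes are limits what a count for a single gene can mean. In GRCm38, the build the submitters name, the numbered genes lie on chromosome 4 from 59956804 to 62150863, a stretch of 2194 kb. In that order along the chromosome are Mup6 (ENSMUSG00000078689, 59964294 to 60007274, plus strand), Mup7 (ENSMUSG00000073842, 60066469 to 60070475), Mup1 (ENSMUSG00000078683, 60498012 to 60501960), Mup10 (ENSMUSG00000078680, 60578260 to 60582199), Mup11 (ENSMUSG00000073834, 60658466 to 60662411), Mup17 (ENSMUSG00000096688, 61591929 to 61595871), Mup20 (ENSMUSG00000078672, 62050234 to 62054158), Mup3 (ENSMUSG00000066154, 62083476 to 62087342) and Mup21 (ENSMUSG00000066153, 62147932 to 62150863). All but Mup6 are on the minus strand, and all 9 are annotated as protein-coding. Among the 9 genes, coding sequences from GENCODE vM21 transcripts were 80.6 to 99.1% identical over aligned bases. Mup1 and Mup7 were 99.1% identical, and the group of Mup1, Mup7, Mup10, Mup11 and Mup17 was 95.9 to 99.1% identical. Mup3 and Mup21 were 95.4% identical to each other and further from the rest.

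The same aligned stretch of 75 coding bases shows this for all 9 genes. Each is written 5′ to 3′, and capitals mark a base that differs from the most common base at that place. The 9 genes show 8 distinct sequences here and differ at 24 of the 75 places. Mup1 and Mup11 cannot be told apart in this stretch.
Mup1: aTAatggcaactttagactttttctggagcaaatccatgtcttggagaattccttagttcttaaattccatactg
Mup7: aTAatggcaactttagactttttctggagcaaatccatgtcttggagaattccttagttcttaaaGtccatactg
Mup11: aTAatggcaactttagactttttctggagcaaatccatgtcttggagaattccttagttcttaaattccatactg
Mup10: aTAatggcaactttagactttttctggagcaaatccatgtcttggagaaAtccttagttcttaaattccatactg
Mup17: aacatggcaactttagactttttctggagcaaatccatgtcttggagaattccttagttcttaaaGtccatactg
Mup6: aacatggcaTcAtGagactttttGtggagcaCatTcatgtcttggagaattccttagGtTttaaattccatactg
Mup20: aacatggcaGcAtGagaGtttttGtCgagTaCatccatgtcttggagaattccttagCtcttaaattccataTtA
Mup21: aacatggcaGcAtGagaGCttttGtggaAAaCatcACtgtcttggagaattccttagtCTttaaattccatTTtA
Mup3: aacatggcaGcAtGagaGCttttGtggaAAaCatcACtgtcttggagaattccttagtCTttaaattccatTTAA

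A read can be given to a single gene with certainty only where its bases occur nowhere else. Windows of 75 bases, a length set here, were examined, and a longer stretch can be unique where these are not. Of all 75-base windows of its transcript, Mup6 had 100% that occurred in no other annotated gene, Mup3 93.2%, Mup21 89.7% and Mup20 56.4%. Mup3, Mup20 and Mup21 each shared windows with 1 other gene. Mup17 had 31.3%, Mup11 14.3%, Mup10 14.2%, Mup7 14.2% and Mup1 8.26%, and each of these 5 shared windows with 17 or 18 other genes. Counts of Mup3, Mup6 and Mup21 therefore rest largely on their own sequence and those of Mup20 in part, whereas those of Mup1, Mup7, Mup10, Mup11 and Mup17 are uncertain as single values, since the counting may have moved reads among near copies. How the submitters' counting treated such reads is not given in the sources used here.

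**Figure D1:**
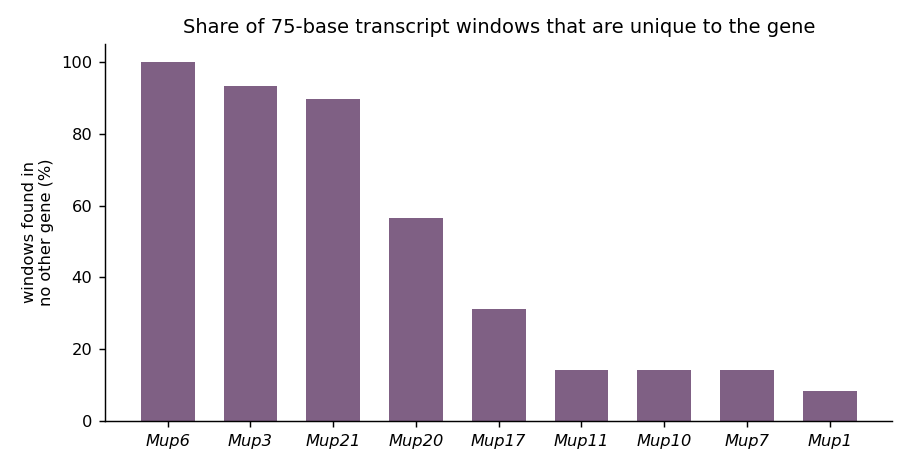
Share of 75-base windows of each transcript (y axis, percent) that occur in no other annotated transcript, for the 9 genes ordered by that share (x axis). Mup6, Mup3 and Mup21 stand near the top at 89.7% or more, and Mup1 is lowest at 8.26%.

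The promoters are alike as well. RefSeq start regions (GRCm38.p6, 250 bases before to 50 after each start) were matched for 7 of the 9 genes, and Mup1 and Mup20 were not used here. The letters TATATAA, on either strand, were found in 6 of the 7, in all but Mup7, and in 3.24% of 32851 start regions of all genes. The Mup7 region, placed by its annotated start, ends on 14 bases that stand before TATATAA in the regions of Mup11 and Mup17, so the place of these letters lies outside it. The letters AATCAAT, which hold the core ATCAAT that HNF6 (Onecut1) binds, were found in 7 of 7 and in 2.86% of all start regions. The spaced palindrome TTCNNNGAA, the letters bound by STAT5, was found in 0 of 7 and in 8.3% of all, and the same palindrome with 1 more base between its arms in 3 of 7 (Mup6, Mup7, Mup11) and in 6.95% of all. TGTTCT, the half-site of steroid receptors, was found in 2 of 7 (Mup3, Mup21) and in 19% of all, and TTGCNNAA, a C/EBP site, in 0 of 7 and in 10.8% of all. The sequences of Mup3, Mup17 and Mup6 are shown because these genes stood at the top, near the top and at the bottom of the levels given below. They run 5′ to 3′ on the gene's strand, from chr4:62087268-62087567 (minus strand) for Mup3, chr4:61595783-61596082 (minus strand) for Mup17 and chr4:60003231-60003530 (plus strand) for Mup6. Capitals mark TATATAA and AATCAAT, which do not overlap, and they occur in all 3.
Mup3: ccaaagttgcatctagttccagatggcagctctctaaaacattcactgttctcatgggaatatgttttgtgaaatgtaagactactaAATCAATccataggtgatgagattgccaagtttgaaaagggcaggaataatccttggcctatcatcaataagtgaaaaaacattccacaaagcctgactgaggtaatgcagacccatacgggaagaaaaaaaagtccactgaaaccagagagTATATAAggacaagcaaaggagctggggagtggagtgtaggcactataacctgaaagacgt
Mup17: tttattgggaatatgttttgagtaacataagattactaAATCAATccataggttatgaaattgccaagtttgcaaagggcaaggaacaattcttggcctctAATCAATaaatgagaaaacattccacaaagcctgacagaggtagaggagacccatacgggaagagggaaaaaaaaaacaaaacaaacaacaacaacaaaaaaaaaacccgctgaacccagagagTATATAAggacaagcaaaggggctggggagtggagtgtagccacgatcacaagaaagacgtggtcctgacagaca
Mup6: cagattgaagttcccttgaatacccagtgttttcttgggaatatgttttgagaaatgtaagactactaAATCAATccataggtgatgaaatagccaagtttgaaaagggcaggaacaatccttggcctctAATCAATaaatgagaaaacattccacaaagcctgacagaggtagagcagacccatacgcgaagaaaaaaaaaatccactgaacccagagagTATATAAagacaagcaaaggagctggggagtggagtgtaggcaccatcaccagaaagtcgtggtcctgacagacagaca
Mup3 and Mup6 were 88.7% identical over aligned bases of this window, and Mup3 and Mup17 76.9%. A match of letters is a description and does not show that a factor was bound.

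Summed over the 9 genes, the levels were split by sex label, and within a label by tumour line. In libraries labelled male the sum was 2646 and 1370.0 CPM in Colo201 2L and 2R, against 374 and 507 CPM in HCT116 1L and 1R. In libraries labelled female it was 13172 and 16158 CPM in Colo201 4L and 4R, against 7145 and 11918 CPM in HCT116 3L and 3R. The 4 libraries labelled male thus all lay below the 4 labelled female, and within each label both Colo201 libraries lay above both HCT116 libraries. The mean of Colo201 was 4.56 times that of HCT116 among libraries labelled male and 1.54 times among those labelled female. Over all 22 numbered Mup genes these ratios were 5.03 and 1.21, and for the other 13 alone 16.9 and 0.898. Over all 22, both Colo201 libraries lay above both HCT116 libraries under the male label. Under the female label the lines overlapped, with Colo201 4L at 21936 CPM below HCT116 3R at 24867 CPM.

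**Figure D2:**
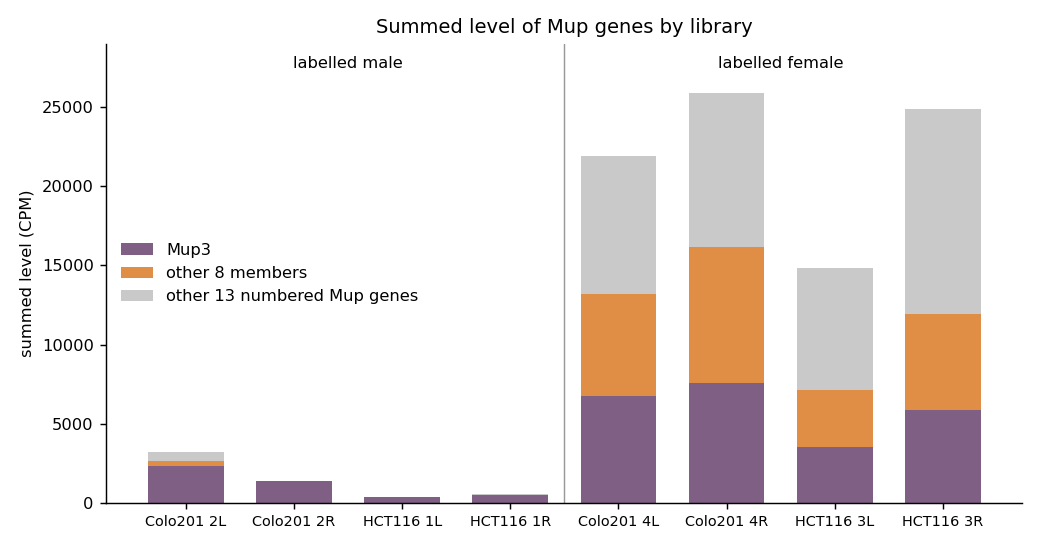
Summed level in CPM (y axis) of Mup3, the other 8 genes and the other 13 numbered Mup genes, stacked for each of the 8 libraries (x axis). The 9-gene part ranges from 374 to 2646 CPM in libraries labelled male and from 7145 to 16158 CPM in those labelled female.

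What made up the sum also differed between the labels. Per length, in the submitters' FPKM, Mup3 gave 86.2 and 98.5% of the 9-gene level in Colo201 2L and 2R, against 97.9 and 95.8% for HCT116 1L and 1R. In libraries labelled female it gave less, 49.4 and 44.9% for Colo201 4L and 4R and 48.5 and 47.7% for HCT116 3L and 3R. Without Mup3 the sum in CPM was 351 and 17 in Colo201 2L and 2R, against 6.49 and 18.9 in HCT116 1L and 1R. Colo201 2R thus lay below HCT116 1R once Mup3 was left out. In libraries labelled female this sum was 6403 and 8595 in Colo201 4L and 4R, against 3598 and 6049 in HCT116 3L and 3R. Per length in libraries labelled female, Mup3 was highest at a mean of 5053 ± 1464 FPKM (SD, n = 4), followed by Mup17 at 1940 ± 389, Mup7 at 1469 ± 613, Mup20 at 1411 ± 1110, Mup1 at 311 ± 80.8, Mup21 at 279 ± 155, Mup10 at 208 ± 36.1, Mup11 at 3.11 ± 0.892 and Mup6 at 0.728 ± 0.815 FPKM. Of neighbours in this order, Mup3 and Mup17, Mup10 and Mup11, and Mup11 and Mup6 were further apart than the larger of their SDs, and the other pairs were not. The order differed between the lines. Mup20 came after Mup3 in Colo201 (2349 FPKM on average in 4L and 4R, with Mup7 at 1846 and Mup17 at 1819), and came after Mup3, Mup17 and Mup7 in HCT116 (472 FPKM in 3L and 3R, with Mup17 at 2060 and Mup7 at 1092).

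Mup3, whose transcript is largely its own, was the most abundant member in every library. Its level was 2295 and 1353 CPM in Colo201 2L and 2R and 6769 and 7564 CPM in Colo201 4L and 4R, against 368 and 488 CPM in HCT116 1L and 1R and 3547 and 5868 CPM in HCT116 3L and 3R. Within each label both Colo201 libraries lay above both HCT116 libraries, but the lines overlapped once labels were pooled. Its log2 fold change was 1.38 (SE 0.36, adjusted p = 0.0674) for Colo201 over HCT116 and -2.72 (SE 0.37, adjusted p = 0.00628) for labelled male over labelled female, by edgeR's quasi-likelihood test with Benjamini-Hochberg adjustment over all 17669 genes. Here and below, the test of lines holds the sex label constant and the test of labels holds the line constant.

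Mup20, which encodes the pheromone darcin, stood at 21.9 and 8.20 CPM in Colo201 2L and 2R and 2154 and 2651 CPM in Colo201 4L and 4R, against 5.35 and 9.05 CPM in HCT116 1L and 1R and 309 and 652 CPM in HCT116 3L and 3R. Colo201 4L and 4R stood far above HCT116 3L and 3R, whereas among libraries labelled male Colo201 2R fell between the HCT116 libraries. The log2 fold change for Colo201 over HCT116 was 1.74 (SE 0.43, adjusted p = 0.0568) and that for labelled male over labelled female -6.69 (SE 0.52, adjusted p = 0.000335).

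Mup21, the closest relative of Mup3 among the 9 by coding sequence, stood at 4.4 and 3.45 CPM in Colo201 2L and 2R and 183 and 329 CPM in Colo201 4L and 4R, against 1.04 and 1.49 CPM in HCT116 1L and 1R and 59.5 and 261 CPM in HCT116 3L and 3R. Colo201 lay above HCT116 among libraries labelled male, while among those labelled female Colo201 4L lay between HCT116 3L and 3R. Its log2 fold changes were 1.12 (SE 0.47, adjusted p = 0.209) for the lines and -6.49 (SE 0.57, adjusted p = 0.000532) for the labels.

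Mup6 had very few counts. It had 0 counts in all 4 libraries labelled male, 1.14 and 1.93 CPM in Colo201 4L and 4R, and 0 and 0.163 CPM in HCT116 3L and 3R. A count of 0 allows a level of up to 0.183 to 0.196 CPM per library, 3 fragments taken as 12 estimated counts, for counting error only. Mup6 was thus above that limit only in Colo201 4L and 4R. Pooled over libraries, its level was at least 17-fold lower in those labelled male than in those labelled female, which held 203 counts together. Neither comparison passed, with adjusted p = 0.18 for the lines and 0.0676 for the labels.

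The 5 near-identical genes had a common shape. They were high in libraries labelled female, Mup11 apart, and far lower in those labelled male, where Colo201 2L held most of Mup1, Mup7, Mup10 and Mup17. Mup7 stood at 96.4 and 3.74 CPM in Colo201 2L and 2R and 1629 and 2574 CPM in Colo201 4L and 4R, against 0.0978 and 0.284 CPM in HCT116 1L and 1R and 866 and 1609 CPM in HCT116 3L and 3R. Mup17 stood at 159 and 0.397 CPM in Colo201 2L and 2R and 1723 and 1993 CPM in Colo201 4L and 4R, against 0 and 6.52 CPM in HCT116 1L and 1R and 1658 and 2531 CPM in HCT116 3L and 3R. For Mup7 both Colo201 libraries lay above both HCT116 libraries under each label, and for Mup17 they did so under neither.

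Mup1 stood at 5.96 and 1.07 CPM in Colo201 2L and 2R and 455 and 652 CPM in Colo201 4L and 4R, against 0 and 1.45 CPM in HCT116 1L and 1R and 389 and 673 CPM in HCT116 3L and 3R. Mup10 stood at 62.9 and 0 CPM in Colo201 2L and 2R and 254 and 389 CPM in Colo201 4L and 4R, against 0 and 0.126 CPM in HCT116 1L and 1R and 310.5 and 316 CPM in HCT116 3L and 3R. Mup11 stood at 0.272 and 0.122 CPM in Colo201 2L and 2R and 3.77 and 4.79 CPM in Colo201 4L and 4R, against 0 and 0 CPM in HCT116 1L and 1R and 5.58 and 7.42 CPM in HCT116 3L and 3R. Among libraries labelled female the lines overlapped for Mup1 and Mup10, and for Mup11 both Colo201 libraries lay below both HCT116 libraries.

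**Figure D3:**
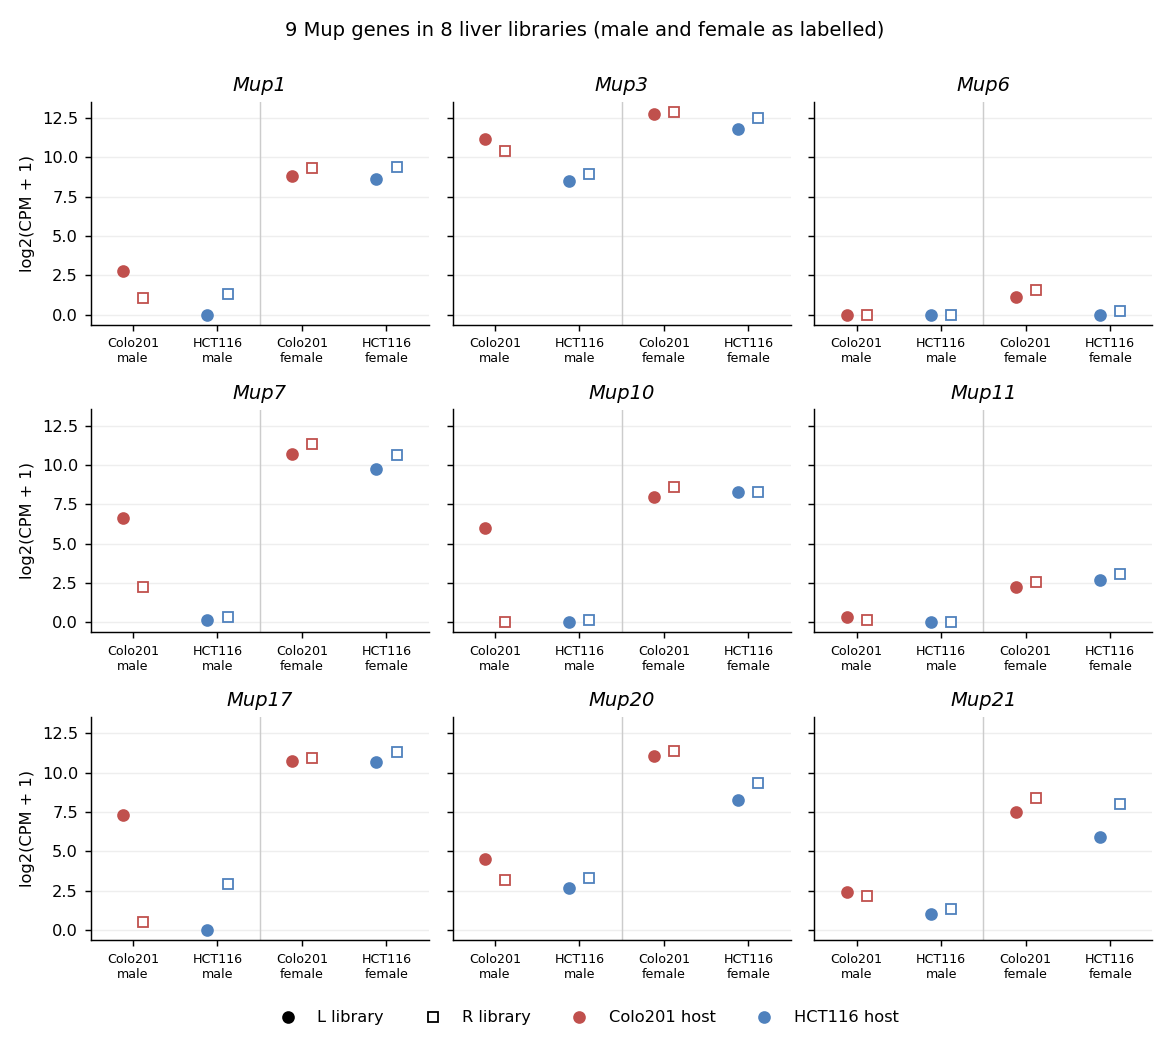
Level of each of the 9 genes as log2(CPM + 1) (y axis) in the 8 libraries, grouped by tumour line and sex label (x axis); filled circles are L libraries and open squares R libraries. Libraries labelled female stand above those labelled male without overlap for every gene but Mup6, and Colo201 2L stands far above Colo201 2R for Mup7, Mup10 and Mup17.

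Set side by side, hosts of Colo201 and hosts of HCT116 did not differ past the threshold for any of the 9 genes. In edgeR 0 of 9 were higher and 0 lower at an adjusted p under 0.05, where 2.48% of all tested genes were higher and 2.3% lower. All 9 log2 fold changes were positive, from 0.49 for Mup11 to 4.04 for Mup6, with a median of 1.74 against 0.00 over all tested genes. That median was 0.94 without Colo201 2L, with Mup10 at -0.07 and Mup17 at -0.93, 1.12 without HCT116 1L, and 0.68 without the sex label as a term. Plain means over libraries ran the other way for 2 genes. Mup11 averaged 2.24 ± 2.39 CPM in Colo201 and 3.25 ± 3.83 CPM in HCT116 (SD, n = 4 each), and Mup17 969 ± 1035 CPM in Colo201 and 1049 ± 1259 CPM in HCT116 (SD, n = 4 each). Unadjusted, 4 of the 9 had p under 0.05 in edgeR, as did 21.7% of all tested genes. They were Mup3, Mup6, Mup20 and Mup21, the 4 genes with the largest share of sequence of their own. The set changed with the method. By DESeq2 3 of the 9 had an unadjusted p under 0.05, Mup7, Mup20 and Mup21, as did 4094 of all 17669 tested genes. The largest values fitted by edgeR, 4.04 for Mup6 (SE 1.41), 3.76 for Mup7 (SE 1.88, adjusted p = 0.291) and 3.19 for Mup10 (SE 2.44, adjusted p = 0.496), rest on libraries at or near 0 counts. For 0 of the 9 did all 4 Colo201 libraries lie above all 4 HCT116 libraries, which 5.55% of all tested genes did. DESeq2 called 2 of the 9 higher, Mup7 and Mup20, and 970 of all 17669 tested genes. Without HCT116 3R edgeR called 2, Mup3 and Mup21, and 214 of all tested genes. Without Colo201 2R it called 1, Mup20, and again 214 of all tested genes.

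The sex label separated the genes. In edgeR 5 of 9 were lower in libraries labelled male (Mup1, Mup3, Mup11, Mup20, Mup21) and 0 higher, where 2.06% of all tested genes were lower and 1.96% higher. Fitted log2 fold changes ran from -8.57 for Mup6 to -2.72 for Mup3, with a median of -6.69 against 0.00 over all tested genes. For 8 of the 9, all but Mup6, the 4 libraries labelled male lay entirely below the 4 labelled female, which held for 4.71% of all tested genes. Mup1 averaged 2.12 ± 2.63 CPM in libraries labelled male and 542 ± 142 CPM in those labelled female (SD, n = 4 each), or -8.30 as a fitted log2 fold change (SE 1.09, adjusted p = 0.00511). Mup11 averaged 0.0986 ± 0.129 CPM in libraries labelled male and 5.39 ± 1.54 CPM in those labelled female (SD, n = 4 each), or -5.90 as a fitted log2 fold change (SE 0.87, adjusted p = 0.00838). Mup7 (-8.33, SE 1.95, adjusted p = 0.0538), Mup10 (-6.44, SE 2.37, adjusted p = 0.19) and Mup17 (-6.86, SE 2.15, adjusted p = 0.128) did not pass. Without Colo201 2L, 8 of the 9 were called lower, as were 336 of all 17669 tested genes. With libraries summed by title number 3 were, as were 67 of all tested genes.

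**Figure D4:**
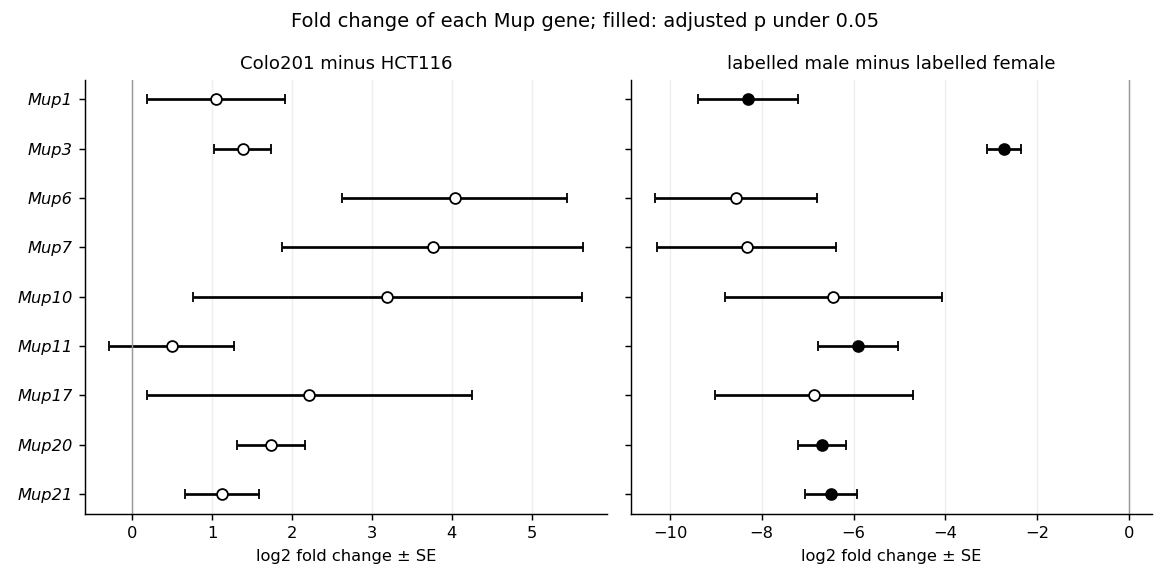
Log2 fold change with its standard error (x axes) of the 9 genes (y axis) for Colo201 minus HCT116 on the left and labelled male minus labelled female on the right; filled points had an adjusted p under 0.05. All 9 points lie above 0 for the lines, with 0 filled, and all 9 lie below 0 for the labels, with 5 filled.

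Within a label, with 2 libraries against 2, edgeR called 0 of 9 among libraries labelled male, where 0.102% of all tested genes were higher and 0.13% lower, and 0 of 9 among those labelled female, where 0.26% were higher and 0.232% lower. Unadjusted, 5 of the 9 had p under 0.05 among libraries labelled male, as did 13.1% of all tested genes, and 2 of the 9 among those labelled female, as did 14.1% of all tested genes. Among libraries labelled male both Colo201 libraries lay above both HCT116 libraries for 4 of the 9 (Mup3, Mup7, Mup11, Mup21), and 20.5% of all tested genes did so. Among those labelled female they did for 4 (Mup3, Mup6, Mup7, Mup20), where 21.6% of all tested genes did. For Mup3 the fitted log2 fold change was 2.15 (SE 0.35, adjusted p = 0.0777) among libraries labelled male and 0.61 (SE 0.33, adjusted p = 0.46) among those labelled female. For Mup20 it was 1.13 (SE 0.54, adjusted p = 0.428) among libraries labelled male and 2.32 (SE 0.55, adjusted p = 0.137) among those labelled female. The difference between these effects, tested as an interaction (labelled female minus labelled male), was called for 0 of 9, where 0.0283% of all tested genes were called, and 4 of the 9 had an unadjusted p under 0.05, as did 4.1% of all tested genes. It was -1.54 for Mup3 (SE 0.47) and 1.19 for Mup20 (SE 0.75), each with an adjusted p of 1. Values among libraries labelled male turned on which Colo201 library was kept. A lone library has no spread of its own and was assumed to vary like the other groups. With 2L alone the log2 fold change among libraries labelled male was 2.53 for Mup3 and 9.06 for Mup7. With 2R alone it was 1.65 for Mup3 and 4.25 for Mup7. The log2 fold change of Mup10 among libraries labelled male was 9.0 with both, and -5.05 with 2R alone. For Mup17 it was 4.71 with both and -3.04 with 2R alone, and the interaction of Mup10 was -8.94 with both and 5.10 with 2R alone. Since the gap between 2L and 2R was known when the genes were chosen, these values are a description.

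The widest spread within a title number was that of Colo201 number 2, which the choice of these genes used, so it is described without a test. Mup17 had 9912 counts in 2L and 26 in 2R, a ratio of 400-fold in CPM. Mup10 had 3929 counts in 2L and 0 in 2R, at least 343-fold higher in 2L. The ratio of 2L to 2R was 25.8 for Mup7, 5.57 for Mup1, 2.67 for Mup20, 1.70 for Mup3 and 1.28 for Mup21. The ratio was thus small for Mup3 and Mup21, of which most sequence is their own, and large for some of the near-identical genes. Mup11 had only 17 and 8 counts in 2L and 2R, and Mup6 0 and 0. Sums over near copies were higher in 2L as well. The 9-gene sum without Mup3 was 351 CPM in 2L and 17 CPM in 2R. The sum of the other 13 numbered Mup genes was 549 CPM in 2L and 39.6 CPM in 2R. The part of shared reads in the single ratios was not tested. In all, 5 of 9 stood at least 2-fold higher in 2L, and 3.23% of all tested genes did so.

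In the other 3 numbers the direction was the opposite. Of the genes with a count over the floor of 12 in L or R, L lay below R for 9 of 9 in Colo201 number 4, 6 of 6 in HCT116 number 1 and 8 of 8 in HCT116 number 3. In Colo201 number 2, whose direction was known when the genes were chosen, L lay above R for 8 of 8. The share of all tested genes by direction alone was not counted. Some counts were near the floor, with 6 and 18 for Mup7 in 1L and 1R and 17 and 8 for Mup11 in 2L and 2R. Most of the gaps in the other 3 numbers were under 2-fold. In number 4 they ran from 1.12-fold for Mup3 to 1.80-fold for Mup21 in favour of R. The exceptions were Mup17 in HCT116 number 1, with 0 counts in 1L and 413 in 1R, at least 33.4-fold lower in 1L, and Mup1, with 0 and 92 counts, at least 7.43-fold lower in 1L. In HCT116 number 3, Mup21 was 4.38-fold and Mup20 2.11-fold higher in 3R than in 3L. The other numbered Mup genes over the floor were less uniform. For them L lay below R for 8 of 11 in number 4, 3 of 5 in number 1, 8 of 11 in number 3 and 0 of 11 in number 2. Over all tested genes the median log2 difference of L and R was -0.02, -0.08, 0.06 and -0.02 in numbers 1 to 4. Near copies may share reads, so the genes are not independent.

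**Figure D5:**
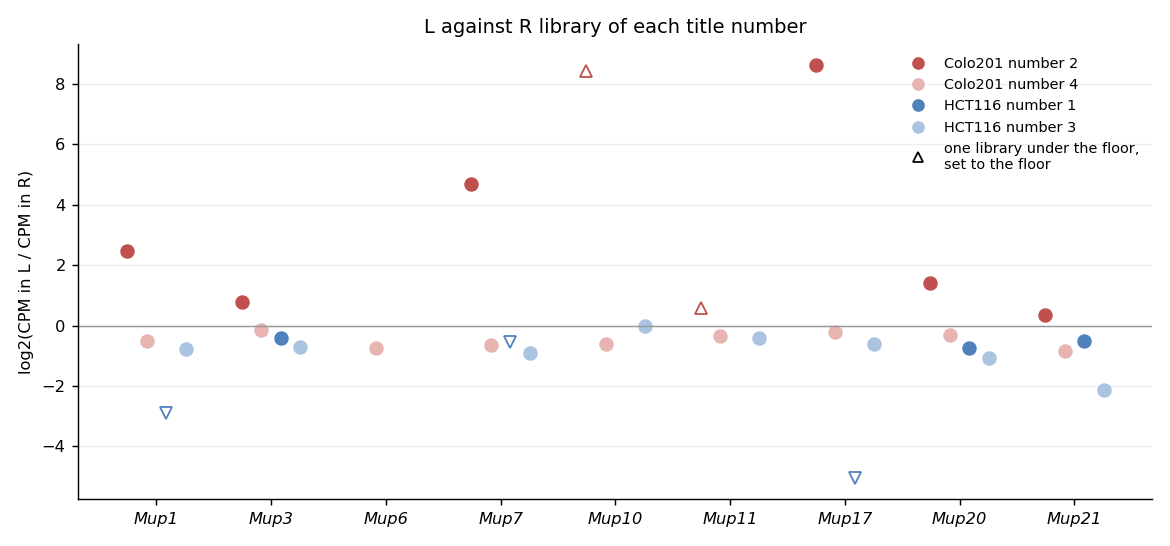
Log2 ratio of the L to the R library of each title number (y axis) for the 9 genes (x axis), from CPM; open triangles have a library under the floor of 12 counts, which was set to the floor. All points of Colo201 number 2 lie above 0 and those of the other 3 numbers below 0; genes at or under the floor in both libraries are not drawn.

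Colo201 2L was unlike 2R in other sex-biased genes too. Of 24 tested genes known to be higher in male mouse liver, the Mup family apart, 8 stood at least 2-fold higher and 1 at least 2-fold lower in 2L, with a median log2 difference of 0.74, against -0.28 in each of the other 3 numbers and -0.08 over all tested genes in number 2. Hsd3b5, a steroid dehydrogenase of male liver, stood at 31.4 CPM in 2L and 8.94 CPM in 2R. Cux2, a repressor of male-biased genes that is normally found in female liver, stood at 31.9 CPM in 2L and 108 CPM in 2R. Among female-biased genes 8 of 31 were at least 2-fold lower in 2L and 4 at least 2-fold higher, where 6.77% and 3.23% of all tested genes were. Such gaps were not limited to number 2, since in HCT116 number 3 L was at least 2-fold higher for 9 of the 31 and lower for 3. The 4 Y-linked genes summed to 0 CPM in 2L and 0.0764 CPM in 2R, and Alb took 12% of counts in 2L and 11.1% in 2R. Their part in the spread of the Mup genes was not tested.

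Mup20 has a near copy, the pseudogene Mup-ps19, named here after its values were seen, with which it was 95.1% identical over aligned bases of the transcript. Mup-ps19 stood at 4.63 and 2.26 CPM in Colo201 2L and 2R and 490.2 and 578 CPM in Colo201 4L and 4R, against 0.799 and 0.964 CPM in HCT116 1L and 1R and 74.1 and 160 CPM in HCT116 3L and 3R. It passed where Mup20 did not, with 2.12 for Colo201 over HCT116 as log2 fold change (SE 0.31, adjusted p = 0.0127), and had -7.17 (SE 0.38, adjusted p = 4.29e-05) for labelled male over labelled female. The ratio of Mup20 to Mup-ps19 in CPM was 3.63 to 4.74 in Colo201 libraries, against 4.09 to 9.39 in HCT116 libraries. Only 16.4% of the pseudogene's windows were its own, so its reads and those of Mup20 may have been exchanged.

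Of the other 13 numbered Mup genes 11 were tested, and 0 were higher or lower in Colo201, where 2.48% of all tested genes were higher and 2.3% lower. By label 4 of the 11 were lower in libraries labelled male, as were 2.06% of all tested genes. Mup22, named after its values were seen, was the 1 of the 11 called higher in Colo201 among libraries labelled male, as were 0.102% of all tested genes. It had 3169 and 547 counts in Colo201 2L and 2R, against 0 and 1 in HCT116 1L and 1R (adjusted p = 0.0353, edgeR). None of its 75-base windows was its own. Single genes of this group could differ widely within a number. Mup14, also chosen after its values were seen, stood at 4.15 CPM in HCT116 3L and 358 CPM in HCT116 3R, while all 13 summed to 7689 and 12949 CPM there.

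No gene beside the cluster was called. The 3 nearest tested genes before it (Inip, Snx30, Gm12543), the 3 after it (Zfp37, Slc31a2, Fkbp15) and Gm12909, an antisense transcript beside Mup3, were called neither by line nor by label. Their log2 fold changes ran from -0.35 to 0.22 for the lines and from -0.74 to 0.55 for the labels, and all 7 overlapped between labels.

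The known control of these genes was compared next, from lists chosen with earlier results in view. Of 9 genes of growth hormone signalling 0 passed between the lines, where 2.48% of all tested genes were higher and 2.3% lower in Colo201. For Ghr, the growth hormone receptor, the log2 fold change of Colo201 over HCT116 was -0.33 (adjusted p = 0.0994), for Stat5b, its transcription factor, 0.13 (adjusted p = 0.442), and for Igf1, its main secreted target, -0.19 (adjusted p = 0.216). Of 12 transcription factors of sex-biased liver expression 1 passed between the lines, Zbtb20, at -0.38 (adjusted p = 0.0402). Of the hormone receptors, the estrogen receptor Esr1 was lower in Colo201 (-1.19, adjusted p = 0.00665). Esr1 stood at 14.1, 18.9, 8.67 and 7.37 CPM in Colo201 2L, 2R, 4L and 4R, against 45.3, 48.6, 15.3 and 14.9 CPM in HCT116 1L, 1R, 3L and 3R, so within each label both Colo201 libraries were lower.

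By label, Bcl6, a repressor of female-biased genes in male liver, was lower in libraries labelled male (-2.73, adjusted p = 0.0101), as were Zbtb20 (-0.46, adjusted p = 0.0181) and Cebpa (-0.46, adjusted p = 0.0396). Socs2, a feedback inhibitor of growth hormone signalling, was higher there (0.91, adjusted p = 0.00641), as were Trim24 (2.41), the prolactin receptor Prlr and Esr1 (1.33). The value for Cux2 was 3.88 (adjusted p = 0.0792), which did not pass. Of 24 male-biased genes outside the family 20 were lower and 0 higher in libraries labelled male, with a median of -3.23. Of 31 female-biased genes 26 were higher and 0 lower. Over all tested genes 1.96% were higher and 2.06% lower in libraries labelled male.

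Between the lines, of the 24 male-biased genes 0 were higher and 2 lower in Colo201, with a median log2 fold change of -0.04. Elovl3, a fatty acid elongase, fell by 2.06 (adjusted p = 0.0483) and Nat8, an acetyltransferase, by 1.47 (adjusted p = 0.0431). Elovl3 stood at 0.24, 0.0917, 12.7 and 25.1 CPM in Colo201 2L, 2R, 4L and 4R, against 1.01, 2.59, 42.4 and 59.0 CPM in HCT116 1L, 1R, 3L and 3R, so within each label both Colo201 libraries were lower. Of 31 female-biased genes 1 was higher and 1 lower. Over all tested genes 2.48% were higher and 2.3% lower in Colo201. Among libraries labelled male 0 of the 31 were called. Among those labelled female 3 were higher and 1 lower, where 0.26% of all tested genes were higher and 0.232% lower. In the interaction 2 of the 31 were called, as were 0.0283% of all tested genes. The 2 were the steroid hydroxylases Cyp2b13 (5.01, adjusted p = 0.0088) and Cyp2a4 (4.23, adjusted p = 0.0268).

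Other secreted proteins were set beside them. Of 20 proteins that hepatocytes secrete, 4 were higher in Colo201 and 0 lower, with a median of 0.19, and of 10 tested lipocalins 2 were higher and 2 lower. Over all tested genes 2.48% were higher and 2.3% lower. Lcn2, the iron-binding lipocalin of the acute phase, rose by 1.78 (adjusted p = 0.0157) and Apom, a lipocalin of HDL, by 0.83 (adjusted p = 0.00717), while Orm2, an acid glycoprotein, fell by 1.47 (adjusted p = 0.0272). Colo201 4R had the highest summed cholangiocyte markers, 80.8 CPM against 32.0 to 61.5 CPM in the other 7 libraries, and the lowest Kupffer cell markers, 145 CPM against 239 to 440.1 CPM. Its Mup sum was also the highest. In bulk liver, fewer cells of a type and less RNA per cell cannot be told apart, and the part of these cells in the Mup levels was not tested.

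The genes most like the 9-gene sum were ranked by Pearson correlation of log2(CPM + 1) with the log2 sum over the 8 libraries, among 11498 tested genes of at least 1 CPM on average, leaving out all Mup genes and genes with only a clone or model name. The 10 highest were Sdr9c7, Snx18, Arsa, Prdx5, Nudt7, Cyp4v3, Gstp1, Mynn, Ociad2 and Fam213b, with r of 0.967 to 0.988. Nudt7, a peroxisomal CoA hydrolase with male-biased expression, stood at 180 and 74.9 CPM in Colo201 2L and 2R and 413 and 611 CPM in Colo201 4L and 4R, against 53.6 and 71.3 CPM in HCT116 1L and 1R and 397 and 608 CPM in HCT116 3L and 3R. It was higher in 2L than in 2R, as the 9-gene sum was, but the ranking that picked it used both libraries. The 10 lowest were Cavin2, Aldh3b3, Hadh, Acy1, Grid1, Tmem185a, Stab2, Prlr, Acot4 and Prom2, with r of -0.997 to -0.971. Prlr, the prolactin receptor, which is female-biased in mouse liver, stood at 203 and 209 CPM in Colo201 2L and 2R and 85.2 and 91.6 CPM in Colo201 4L and 4R, against 284 and 285 CPM in HCT116 1L and 1R and 103 and 82.4 CPM in HCT116 3L and 3R. The 8 points share the split by label. Ranked on the 4 means by title number instead, 0 of the 10 highest and 2 of the 10 lowest were again among the 10.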

How the data were processed

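Liver RNA of 8 libraries, 4 per tumour line, was measured with a stranded mRNA kit, per the labels' protocols. Tools named in the submitters' processing notes are HISAT2 and StringTie, with the build GRCm38 (mm10). Not given in the sources used here are versions, annotation, strand setting and how reads that match several genes were handled. The authors deposited estimated counts per gene, as whole numbers, and FPKM. Multiples of 4 made up 43.9 to 45.0% of low values (1 to 16) against 25% by an even spread, so 1 fragment was taken as 4 counts. The deposited counts were used as they stand. Library totals gave CPM.

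Symbols came from GENCODE vM21, which matched 55141 of 55401 identifiers and may not be the annotation the authors used. All genes with enough counts (filterByExpr over the 4 combinations of line and label, 17669 genes) were fitted with edgeR 4.0.16 in R 4.3.3 (TMM, glmQLFit, glmQLFTest), with line and sex label as terms and 5 residual degrees of freedom; contrasts within a label and the interaction used 4 means. P-values were two-sided, adjusted by Benjamini-Hochberg over all tested genes, with a threshold of 0.05. Standard errors are the absolute log2 fold change over the root of F. The fit was tested on simulated data.

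The genes, lists and tests were chosen with earlier results of these data known. Named were the 9 genes, the sex chromosome genes, the 3 nearest tested genes on each side, the 10 highest and 10 lowest correlations, and list members that passed or on which a result turns. A member of the hormone receptor list is not reported here. Alternatives were other scalings, DESeq2 1.42.0, no filter, limma 3.58.1 on log2(FPKM + 1), no covariate, libraries summed by title number, and each library left out. Identity was computed over aligned bases without end gaps. No libraries were duplicates: pairs sharing a title number were the closest, and all differed beyond counting noise.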

Additional observations from a re-analysis of the deposited data

Results flagged for a closer look

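Among the 4 libraries labelled male, Colo201 2L stood apart for 3 of the 9 genes and for the sum without Mup3. It held Mup7 at 96.4 CPM, where the next highest library labelled male held 3.74 CPM. It held Mup10 at 62.9 CPM, with the next at 0.126 CPM, and Mup17 at 159 CPM, with the next at 6.52 CPM. The sum without Mup3 was 351 CPM, with the next at 18.9 CPM. In each case the gap to the next library took up 0.959 or more of the range of the 4 libraries. Among HCT116 libraries Mup6 was at 0.163 CPM in 3R and 0 in the other 3, which is under the level that a count of 0 allows. Of 43 groups of 4 libraries examined 5 gave such a value, and chance flags about 1 in 20 groups. No comparison with that rate is made, since 4 of the 5 are values of Colo201 2L, whose gap to 2R was known when the genes were chosen, and Mup7, Mup10 and Mup17 are near copies.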

How the results depend on the processing

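No paired analysis was possible because the lines share no title number. Each count below is of calls at an adjusted p under 0.05. For Colo201 over HCT116, 0 of the 9 genes were higher, with 2 by DESeq2 and 0 to 2 with a library left out; 0 were lower under every alternative run. All tested genes gave 439 higher and 406 lower; 88 and 67 without the covariate, 970 and 1023 by DESeq2, 0 and 3 with libraries summed by title number, and 292 higher by limma on FPKM. With a library left out these were 89 to 267 higher and 93 to 282 lower. For the labels, 5 of the 9 were lower, with 8 by DESeq2, 8 by limma on FPKM, 3 with summed libraries (Mup3 and Mup11 lost their call) and 5 to 8 with a library left out. All tested genes gave 346 higher and 364 lower; 797 and 788 by DESeq2, 74 and 67 with summed libraries, and 148 to 303 and 166 to 336 with a library left out. Among libraries labelled male, 0 of the 9 were higher, with 1 without the low-count filter and 0 to 3 with a library left out. All tested genes gave 18 higher and 23 lower; 30 higher without the filter, and 0 to 28 higher and 0 to 21 lower with a library left out (0 and 0 without HCT116 1R). Among those labelled female, all tested genes gave 46 higher and 41 lower; 68 lower without the filter, and 8 to 36 higher and 7 to 43 lower with a library left out. The interaction gave 0 to 1 of the 9 lower, and 0 to 10 higher and 0 to 9 lower over all tested genes, with a library left out. The ratio of Colo201 to HCT116 for the 9-gene sum ran from 3.11 to 6.01 among libraries labelled male and from 1.23 to 2.05 among those labelled female with a library left out. Per gene, 139 of 144 alternative values for the lines and 122 of 135 for the labels kept their side of the threshold. The sign turned in 5 of the 144, for values that passed nowhere, and in 0 of the 135. Ranking by Spearman correlation gave no order, since many genes tied. The cause of these changes was not tested. Depth limits Mup6 and Mup11 in libraries labelled male, where counts were at or near 0.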
